A study of Mus musculus with 37 samples.

Results

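Liver RNA sequencing was examined for 9 transcription factors that together define hepatocyte identity: Hnf4a, the CCAAT/enhancer binding proteins Cebpa and Cebpb, the forkhead factors Foxa1, Foxa2 and Foxa3, the nuclear receptor Nr5a2, and the homeobox factors Prox1 and Onecut1. The members were taken by gene symbol from a table of 55487 genes in 37 mouse liver libraries, in which all 9 were present and all 9 passed the filter on low counts. The study removed part of the liver (partial hepatectomy, after which the remaining lobes grow back) or performed a sham operation in wild-type (WT) mice and in mice without NADPH oxidase 4 (Nox4, KO; NOX4-/-), an enzyme that makes hydrogen peroxide. WT livers numbered 5 after sham operation, 3 at 6 h, 3 at 24 h, 4 at 48 h and 3 at 7 d after hepatectomy. KO livers numbered 5, 3, 4, 4 and 3 at the same stages. Each genotype had 1 pooled sham group, in which WT sham replicates 1 to 5 were taken at 7 d, 48 h, 24 h, 48 h and 6 h, and KO sham replicates 1 to 5 at 24 h, 48 h, 48 h, 72 h and 6 h. All 6 h hepatectomy livers were male, while every other group held both sexes. The labels give neither the strain nor the age of the mice, nor how the Nox4 allele was made, and they name no animal, so the p-values measure the spread between libraries.

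Hepatocytes keep their character through a network of transcription factors that bind one another's genes and the genes for plasma proteins, gluconeogenesis and bile acid synthesis. HNF4A is the nuclear receptor at the centre of this network, the FOXA proteins open chromatin at liver enhancers, and C/EBP alpha promotes the differentiated, non-dividing state. C/EBP beta is an early response factor of the regenerating liver and of the acute phase, and mice without it show impaired regeneration. NR5A2 (LRH-1) controls bile acid and cholesterol genes, PROX1 restrains hepatocyte metabolism and proliferation programmes, and ONECUT1 (HNF6) acts in liver development and in glucose and bile acid metabolism.

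The upstream windows of the 4 members whose levels passed the test at 6 h are shown, since their counts moved in opposite directions. Each window runs from 210 to 11 bases before a RefSeq start (GRCm38.p6), 5′ to 3′ on the gene's own strand. Cebpa lies at chr7:35119083-35119282 (plus strand), Cebpb at chr2:167688705-167688904 (plus strand), Foxa1 at chr12:57546122-57546321 (minus strand) and Foxa2, for the outermost of its 3 starts, at chr2:148046980-148047179 (minus strand), and the annotation places no exon inside these 4 windows. Capitals mark matches to 7 motifs searched on both strands.
Cebpa: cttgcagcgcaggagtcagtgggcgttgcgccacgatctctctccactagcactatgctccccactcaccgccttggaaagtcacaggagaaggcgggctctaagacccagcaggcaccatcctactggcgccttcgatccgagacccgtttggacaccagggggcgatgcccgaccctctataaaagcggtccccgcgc
Cebpb: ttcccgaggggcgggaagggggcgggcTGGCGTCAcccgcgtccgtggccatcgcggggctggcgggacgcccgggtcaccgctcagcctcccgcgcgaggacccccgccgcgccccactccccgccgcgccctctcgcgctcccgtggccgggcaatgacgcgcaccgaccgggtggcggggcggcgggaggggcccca
Foxa1: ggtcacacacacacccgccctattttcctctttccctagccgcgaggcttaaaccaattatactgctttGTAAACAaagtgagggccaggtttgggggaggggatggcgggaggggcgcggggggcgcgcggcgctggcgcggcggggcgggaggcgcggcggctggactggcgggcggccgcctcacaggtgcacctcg
Foxa2: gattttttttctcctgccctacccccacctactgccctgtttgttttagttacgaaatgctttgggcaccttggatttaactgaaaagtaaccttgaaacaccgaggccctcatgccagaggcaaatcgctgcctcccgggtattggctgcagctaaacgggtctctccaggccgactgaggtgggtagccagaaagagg
The motifs were TTGCNNAA for C/EBP, TGACGNNA for a cyclic AMP response element (CRE), TGTTTAC for FOXA, CAAAGTC for HNF4, ATCGAT for HNF6, AAGGTCA for NR5A2 and the E-box CACGTG. Over the 14 RefSeq starts of the 9 members, 2 windows held a match: Cebpb a CRE match, TGGCGTCA, 183 to 176 bases before its start, and Foxa1 a FOXA match, GTAAACA, 141 to 135 bases before its start, both as the reverse complement of the letters. The RefSeq start of Foxa1 lies 805 bases downstream of that of GENCODE, so its window and its FOXA match lie inside the GENCODE gene. The RefSeq starts of the other 3 windows coincide with those of GENCODE. Among 32851 promoter windows of the same length, 4.8% held the CRE letters and 2.51% the FOXA letters, and the other motifs were found in 0.597% (HNF6) to 7.59% (C/EBP). A match describes the letters and not a bound site.

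Total counts ranged from 26232544 to 48827025 per library. Nox4 checked the genotype labels: its level in CPM, the counts scaled to a common library size, was 3.95 to 23.5 in WT males and 0.778 to 3.36 in WT females, against 0.325 to 4.98 in KO males and 0 to 0.245 in KO females, so that WT and KO males overlapped in range. The 10 hepatocyte markers summed to 46920.0 to 91580.0 CPM in the lowest group (WT at 24 h) and 101700.0 to 171100.0 in KO at 24 h and the acinar markers Prss2, Cpa1 and Pnlip had a median of 0. Several libraries stood apart for the factors described here. The WT and KO sham livers taken at 6 h (both replicate 5) had high levels of several members, WT 24 h replicate 3 had the largest share of mitochondrially encoded counts of all libraries (8.93%), and KO 24 h replicates 1 and 3 differed from the rest of their group.

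Per kilobase of exon, Cebpa, Cebpb and Hnf4a were the most abundant members, with median levels of 155, 151 and 137 CPM per kilobase over the 37 libraries. These neighbours in the order were not separated: Cebpa exceeded Cebpb in 16 of 37 libraries, and Cebpb exceeded Hnf4a in 23. Foxa3 followed at 30.2 CPM per kilobase, below Hnf4a in all 37 libraries and above Foxa2, the next in order, in all 37. Foxa2 (7.66), Prox1 (5.66), Nr5a2 (4.58), Foxa1 (2.92) and Onecut1 (2.40) had the lowest levels, and each exceeded the next in only 22 to 30 libraries. Onecut1 varied most, with a 36.3-fold difference between its highest and lowest library and a within-group SD of 1.18 on the log2 scale. Nr5a2 and Hnf4a varied least, 2.94-fold and 3.10-fold over all libraries. Cebpb was the member whose group means were spread most widely (SD 0.77 on the log2 scale, against 0.63 within groups).

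**Figure D1:**
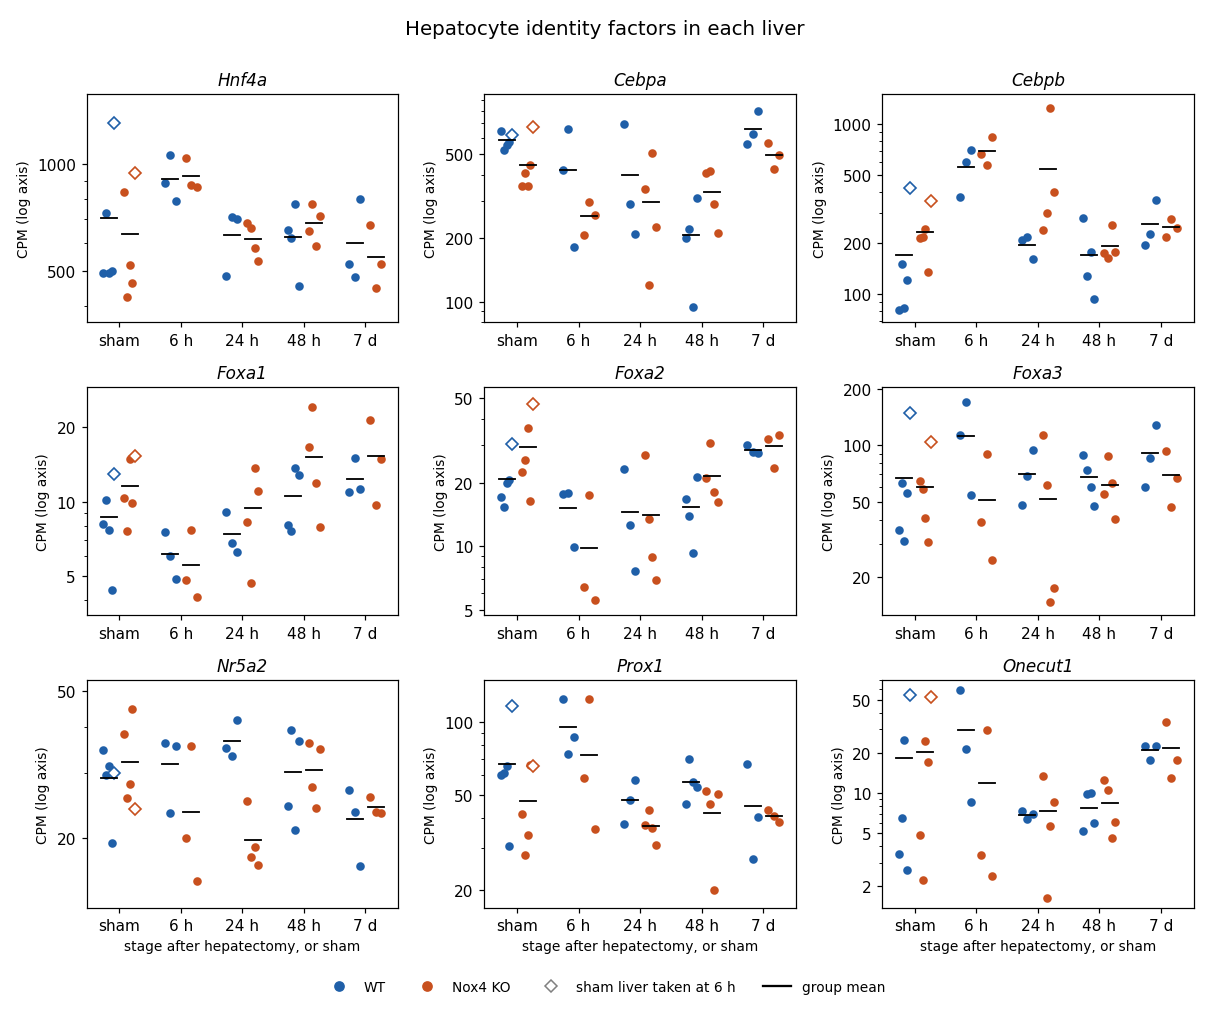
Level of each of the 9 factors in every liver, in CPM on log axes, by stage (sham, then 6 h, 24 h, 48 h and 7 d after hepatectomy); blue points are WT, orange points Nox4 KO, open diamonds the sham livers taken at 6 h and black lines group means. Cebpb was highest at 6 h, Cebpa lowest at 48 h in WT, and the 6 h sham livers lay above all 8 other sham livers for Hnf4a, Cebpb, Foxa3 and Onecut1.

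Each stage was compared with sham in 1 model of all libraries with a term for sex (edgeR's quasi-likelihood test with Benjamini-Hochberg adjustment over 15564 genes, threshold 0.05). Averaged over both genotypes, 1 of 9 members rose and 3 fell at 6 h, when 20.6% of all genes passed. At 24 h 1 member fell (17% of all genes passed), at 48 h 1 fell (11.2%), and at 7 d none passed (0.0514%), with 1 member, Nr5a2, at an unadjusted p under 0.05. Only the 6 h count, 4 of 9, was above the share of all genes. The median log2 change of the 9 members was -0.12, -0.28, -0.17 and 0.17 at the 4 stages, beside 0.01, 0.05, 0.04 and -0.01 over all genes. All comparisons within a genotype share its sham livers.

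Within WT, 1 member rose at 6 h (7.86% of all genes passed) and 1 fell at 48 h (8.29%), while none passed at 24 h (0.925%) or at 7 d (0%). Within KO, 2 fell at 6 h (6.62%), 1 rose and 2 fell at 24 h (28%), and none passed at 48 h (3%) or 7 d (0%). In the 4 comparisons with none, 0 members had an unadjusted p under 0.05 and DESeq2 called 0. Over all genes, the WT and KO comparisons at 7 d with 0 calls in edgeR held 950 and 497 genes at an unadjusted p under 0.05, and DESeq2 called 31 and 6. A call in 1 genotype and not in the other is no test of a difference. The test of that difference is given with the genotype comparisons.

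**Figure D2:**
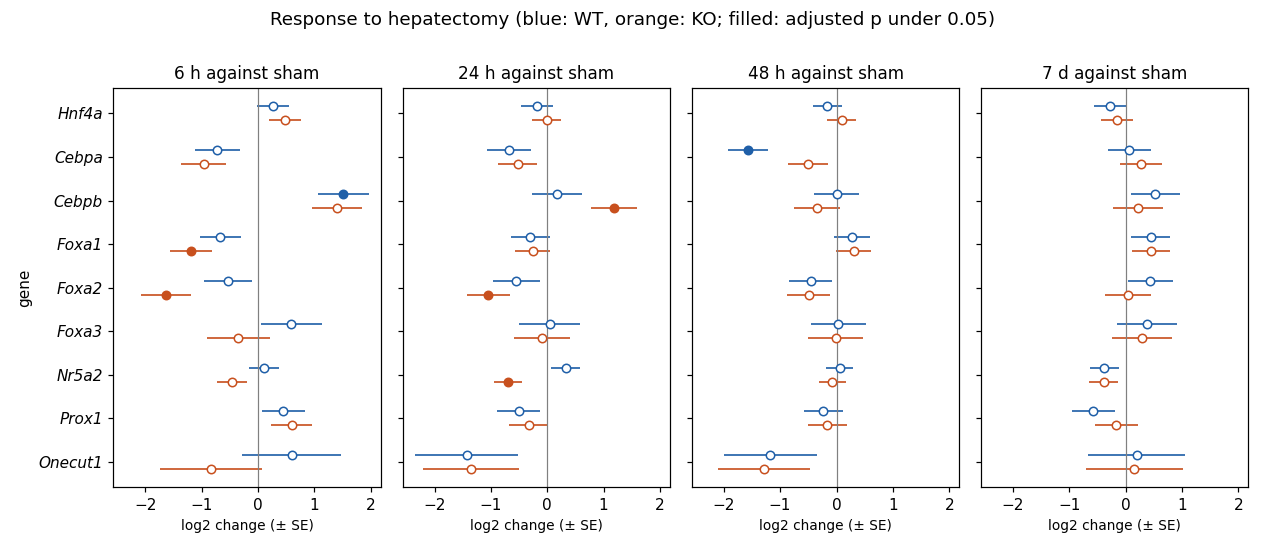
Log2 change of each factor at 6 h, 24 h, 48 h and 7 d after hepatectomy against sham livers of the same genotype (x axis, with bars of 1 SE); WT is blue, KO orange, and filled points had an adjusted p under 0.05. The filled points are Cebpb at 6 h in WT, Foxa1 and Foxa2 at 6 h in KO, Nr5a2, Foxa2 and Cebpb at 24 h in KO, and Cebpa at 48 h in WT.

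Cebpb, the early response member, was the only factor that rose at 6 h against the pooled sham groups. Its level was 80.6, 152, 82.5, 121 and 419 CPM in the 5 WT sham livers and 371, 596 and 709.5 CPM in the 3 WT livers at 6 h. In KO it was 214, 216, 242, 135 and 352 CPM after sham operation and 669.6, 576 and 837 CPM at 6 h. All 3 KO livers at 6 h lay above all KO sham livers, and 2 of 3 WT livers lay above all WT sham livers, the exception overlapping the sham liver taken at 6 h (replicate 5). Averaged over genotypes the rise was 2.74-fold (log2 change 1.45, SE 0.33, adjusted p = 0.00216). It kept its call without each library in turn, and in male libraries alone the log2 change was 1.34, adjusted p = 0.0584. Without the 6 h sham livers it was 1.97, adjusted p = 5.94e-05. Against the 6 h sham livers themselves the log2 change was smaller, at 0.70, as described with the divided sham groups. Within WT the rise was 2.85-fold (log2 change 1.51, SE 0.45, adjusted p = 0.0351), and within KO the value was 1.40 (SE 0.45, adjusted p = 0.0538). That KO value passed with DESeq2 (1.36, adjusted p = 0.0336), without the sex term (1.58, adjusted p = 0.0273), without the 6 h sham livers (1.70, adjusted p = 0.00962) and without KO sham replicate 5 alone (1.55, adjusted p = 0.0425). The WT call was lost without any 1 of WT sham replicates 1 to 4 or WT 6 h replicates 2 and 3 (adjusted p 0.0561 to 0.196, log2 change 1.28 to 1.53). In whole-liver RNA, fewer cells of a type and less RNA per cell cannot be told apart.

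The relatives of Cebpb and markers of cells that also express it were set beside this rise. Cebpd, the delta member of the family, rose at 6 h averaged over genotypes (log2 change 1.94, SE 0.47, adjusted p = 0.00369). Of the 7 neutrophil markers 6 rose, where 20.6% of all genes passed, among them S100a9 (log2 change 2.64, SE 0.55, adjusted p = 0.00115), S100a8 (2.91) and Mmp8 (3.32). Their summed level was 2.74 to 12.6 CPM in WT sham, 31.5 to 79.2 in WT at 6 h, 3.39 to 10.2 in KO sham and 13.6 to 29.4 in KO at 6 h, and Mmp8, Ngp and Cxcr2 were at 0 in at least 1 library. The 8 Kupffer cell and macrophage markers summed to 116 to 494 CPM in WT sham, 87.2 to 215 in WT at 6 h, 221 to 347 in KO sham and 112 to 243 in KO at 6 h, with 1 of 8 lower. Their part in the Cebpb value was not tested.

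After 6 h Cebpb was followed at 3 further stages. In WT the levels were 208, 218 and 162 CPM at 24 h, 281, 128, 176 and 93.5 at 48 h and 195, 227 and 357 at 7 d, all within the WT sham range. The top of that range was WT sham replicate 5, taken at 6 h (419 CPM, with the next at 152). All WT livers at 24 h and 7 d, and some at 48 h, lay above the other WT sham livers. In KO the levels were 239, 301, 1248 and 398 CPM at 24 h, 174, 164, 256 and 177 at 48 h and 218, 277 and 246 at 7 d. The KO change at 24 h was 2.28-fold (log2 change 1.19, SE 0.41, adjusted p = 0.0287) and rested largely on replicate 3, the highest of all 37 libraries. Without it the log2 change was 0.50, adjusted p = 0.375, and the call was also lost without KO 24 h replicate 4 or without KO sham replicate 1 or 4 (adjusted p 0.0531 to 0.375 over the 4). Averaged over genotypes the 24 h value did not pass (log2 change 0.68, SE 0.30, adjusted p = 0.109). It passed without the 6 h sham livers (1.09, adjusted p = 0.00841), without WT sham replicate 5 alone (0.98, adjusted p = 0.0132) and without KO 24 h replicate 1 (0.80, adjusted p = 0.0464).

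Cebpa, the factor of the differentiated state, fell by 1.04 on the log2 scale at 48 h averaged over genotypes (SE 0.25, adjusted p = 0.00513). In WT its level was 643, 523, 554, 571 and 616 CPM after sham operation and 200.0, 221, 93.9 and 310.1 CPM at 48 h. All 4 WT livers at 48 h lay below all 5 WT sham livers, and the level was 2.97-fold lower (log2 change -1.57, SE 0.36, adjusted p = 0.00609). Both calls held without each library in turn. Male livers alone, which are 4 in all in these 2 WT groups, gave an adjusted p of 0.469 with the same direction. In KO the sham livers had 354, 406, 352, 444 and 677 CPM and the 48 h livers 408, 418, 291 and 211 CPM, with overlapping ranges (log2 change -0.51, SE 0.35, adjusted p = 0.604).

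At the other stages Cebpa was more variable. At 6 h its level was 419, 658 and 182 CPM in WT and 208, 298 and 258 in KO, where all 3 livers lay below the KO sham livers. Averaged over genotypes it fell (log2 change -0.84, SE 0.29, adjusted p = 0.0364), but the call was lost without any 1 of WT sham replicate 1, KO sham replicate 5, or replicates 1 and 3 of either 6 h group (adjusted p 0.0513 to 0.123). It was also lost without the sex term (-0.64, adjusted p = 0.0916), with the compared groups alone (-0.80, adjusted p = 0.0506), in male libraries alone (-0.79, adjusted p = 0.208) and without the 6 h sham livers (-0.78, adjusted p = 0.0629). The 24 h levels were 698, 290.4 and 209 CPM in WT and 340.5, 120.1, 507 and 225 in KO (average log2 change -0.60, adjusted p = 0.103). Without WT 24 h replicate 1, the high liver, it was -0.88, adjusted p = 0.0260. At 7 d the levels were 557, 625 and 802 CPM in WT and 567, 425 and 496 in KO, within or above the sham ranges, with a log2 change of 0.17 (SE 0.26, adjusted p = 0.955).

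The balance of the 2 C/EBP factors was expressed as the log2 ratio of Cebpb to Cebpa CPM in each library, which compares groups and not the 2 genes with each other, since their lengths differ. In WT the ratio was -2.99, -1.78, -2.74, -2.23 and -0.56 in the sham livers and -0.17, -0.14 and 1.96 at 6 h, so that all 3 livers at 6 h lay above the sham livers. In KO it was -0.72, -0.91, -0.54, -1.71 and -0.94 in the sham livers, 1.69, 0.95 and 1.70 at 6 h and -0.51, 1.32, 1.298 and 0.82 at 24 h, without overlap between sham and either stage. The mean difference from sham was 2.61 in WT at 6 h (exact permutation test, two-sided p = 0.0179), 2.41 in KO at 6 h (exact permutation p = 0.0179) and 1.70 in KO at 24 h (exact permutation p = 0.00794). These are the smallest p-values the group sizes allow, and after adjustment over 13 comparisons all 3 were 0.0774, so none passed. The remaining 10 differences had adjusted p of 0.165 or more. In WT the ratio was -1.74, -0.41 and -0.37 at 24 h, 0.49, -0.79, 0.91 and -1.72 at 48 h and -1.51, -1.46 and -1.17 at 7 d. In KO at 48 h and 7 d it stood at -1.23, -1.35, -0.18 and -0.25 and at -1.38, -0.62 and -1.01, and 5 of these 7 livers lay within the KO sham range.

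**Figure D3:**
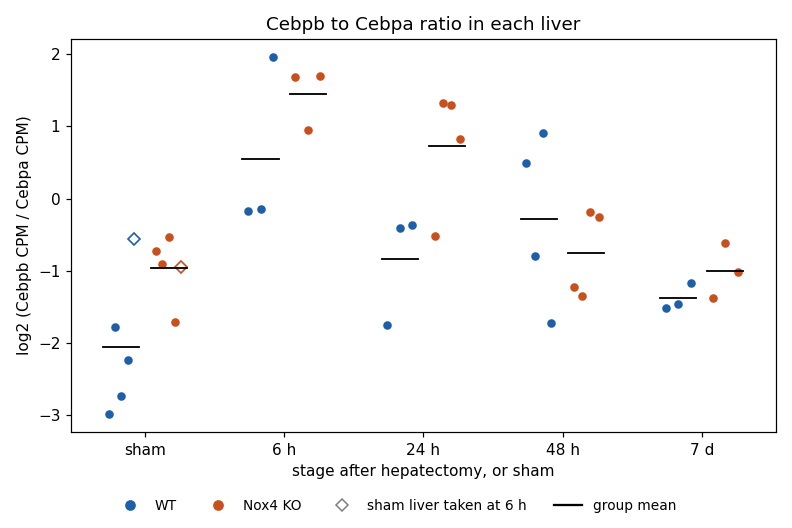
Log2 ratio of Cebpb to Cebpa CPM in each liver (y axis) by stage (x axis); blue points are WT, orange points KO, open diamonds the sham livers taken at 6 h and black lines group means. The 3 livers of each genotype at 6 h lie above all sham livers of that genotype, as do the 4 KO livers at 24 h.

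Of the FOXA factors, Foxa1 and Foxa2 fell at 6 h and Foxa3 gave no call. Foxa2 was 17.2, 15.4, 20.0, 20.6 and 30.5 CPM in WT sham and 17.6, 17.8 and 9.90 CPM in WT at 6 h, and 22.4, 25.6, 36.2, 16.4 and 46.9 CPM in KO sham and 6.43, 17.5 and 5.60 CPM in KO at 6 h. In both genotypes the ranges overlapped, in KO through replicate 2. Averaged over genotypes the level was 2.12-fold lower (log2 change -1.08, SE 0.31, adjusted p = 0.0141), and within KO it was 3.11-fold lower (log2 change -1.64, SE 0.44, adjusted p = 0.0224). The average lost its call without WT 6 h replicate 3 (-0.97, adjusted p = 0.0535) and without the 6 h sham livers (-0.80, adjusted p = 0.0680), and the KO call was lost without KO 6 h replicate 1 or 3 (adjusted p 0.129 to 0.151). In male libraries alone neither call held, and the KO call was also lost with the compared groups alone. Within WT the log2 change was -0.53 (SE 0.43, adjusted p = 0.463).

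Foxa1 was 8.14, 10.2, 7.70, 4.41 and 12.99 CPM in WT sham and 7.51, 6.01 and 4.87 CPM in WT at 6 h. In KO it was 10.3, 7.63, 14.8, 9.83 and 15.3 CPM in sham and 4.83, 7.70 and 4.10 CPM at 6 h. The ranges overlapped in both genotypes, in WT through sham replicate 4. Averaged over genotypes it was 1.90-fold lower (log2 change -0.93, SE 0.27, adjusted p = 0.0129), a call that held in every alternative run and without each library in turn, apart from the fit without a count filter with adjusted p between 0.00262 and 0.0457. Within KO the log2 change was -1.19 (SE 0.37, adjusted p = 0.0461), which was lost without any 1 of KO sham replicates 1, 3 and 5 or KO 6 h replicates 1 and 3 (adjusted p 0.0589 to 0.194) and without the 6 h sham livers (-1.06, adjusted p = 0.0688). At later stages Foxa1 was 16.6, 24.2, 11.9 and 7.88 CPM in KO at 48 h and 21.4, 9.72 and 14.9 CPM at 7 d, values that overlapped the sham livers and did not pass (log2 change against sham 0.30 and 0.45).

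At 24 h Foxa2 was 23.1, 12.7 and 7.66 CPM in WT and 26.9, 13.4, 8.92 and 6.98 CPM in KO. The average change passed narrowly (log2 change -0.80, SE 0.28, adjusted p = 0.0486), and the call was lost without any 1 of 13 of the 17 libraries, namely all WT sham livers, WT 24 h replicates 2 and 3, KO sham replicates 2, 3 and 5 and KO 24 h replicates 2 to 4 (adjusted p 0.0508 to 0.154, log2 change -0.84 to -0.65), without the 6 h sham livers (-0.58, adjusted p = 0.145) and with a lighter filter on low counts (-0.81, adjusted p = 0.0544). Within KO the log2 change was -1.04 (adjusted p = 0.0404), also lost without any 1 of 6 of the 9 libraries, the same KO sham and KO 24 h replicates (adjusted p 0.0515 to 0.152), and without the 6 h sham livers (-0.84, adjusted p = 0.0970). Foxa3 ranged from 14.7 to 114 CPM within KO at 24 h alone, and its log2 change was 0.12 at 6 h, -0.03 at 24 h, 0.01 at 48 h and 0.33 at 7 d averaged over genotypes (SE 0.35 to 0.40). At 7 d Foxa2 was 30.2, 27.9 and 27.5 CPM in WT and 32.1, 23.4 and 33.5 CPM in KO, values that overlap the sham ranges.

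Hnf4a, the centre of the network, gave no call against the pooled sham groups. Every hepatectomy liver at 6 h lay above every one at 24 h and 48 h. Hnf4a was 883, 1061 and 789 CPM in WT and 1042, 877 and 863 CPM in KO at 6 h, and 486 to 708 and 534 to 685 CPM at 24 h. At 48 h it was 453 to 773 and 589.5 to 774 CPM. The average log2 change against sham was 0.37 at 6 h (SE 0.21, adjusted p = 0.211), -0.10 at 24 h, -0.04 at 48 h and -0.21 at 7 d (SE 0.18 to 0.20). The 6 h value depended on the sham group: without the 6 h sham livers it was 0.70, adjusted p = 0.00557, and without WT sham replicate 5 alone 0.58, adjusted p = 0.0228.

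Prox1, Nr5a2 and Onecut1 passed no comparison of a stage averaged over genotypes. Prox1 was 125, 73.6 and 86.5 CPM in WT and 58.4, 124 and 35.9 CPM in KO at 6 h (log2 change 0.52, SE 0.27, adjusted p = 0.170), and without the 6 h sham livers the log2 change was 0.80, adjusted p = 0.0297. PROX1 also marks lymphatic endothelium: of 5 lymphatic markers 4 were tested, with a median log2 change of 0.14 at 6 h. Their summed levels were 28.3 to 65.2 CPM in WT sham and 36.8 to 65.9 in WT at 6 h. In KO the sums were 21.55 to 37.75 CPM in sham and 41.15 to 47.97 at 6 h, without overlap. Mmrn1 was at 0 in at least 1 library, and the part of these markers in the Prox1 value was not tested. Onecut1 was 7.34, 6.34 and 6.95 CPM in WT and 13.4, 1.62, 5.68 and 8.57 in KO at 24 h, beside sham livers spread widely from 2.65 to 54.2 and 2.24 to 52.6 CPM (log2 change -1.39, SE 0.62, adjusted p = 0.118). The top of each sham range was the liver taken at 6 h, and the other 8 sham livers had 2.24 to 24.9 CPM (median 5.66). At 48 h it was 5.19 to 9.99 CPM in WT and 4.58 to 12.6 in KO (log2 change -1.23, SE 0.58, adjusted p = 0.187). Onecut1 did not pass with a lighter filter on low counts either (adjusted p = 0.134 and 0.209). Apart from the fit without a count filter, its adjusted p over all other runs was 0.0588 to 0.534 at 24 h. At 48 h it was 0.124 to 0.803. Nr5a2 is described with the genotypes.

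The pooled sham groups were then divided by time, a comparison added after the data had been seen. The WT and KO sham livers taken at 6 h had 1312 and 946 CPM of Hnf4a, above the 423 to 838 CPM (median 497) of the 8 sham livers taken at 24 h to 7 d. For Cebpb they had 419 and 352 CPM against 80.6 to 242 (median 143.5), for Foxa3 148 and 104 against 30.7 to 64.1 (median 48.4), and for Onecut1 54.2 and 52.6 against 2.24 to 24.9 (median 5.66). Both 6 h sham livers lay above all 8 others for these 4 members, and above 7 of 8 for Cebpa, Foxa1, Foxa2 and Prox1, but above only 1 of 8 for Nr5a2. The share of all genes with such a separation was not computed, so these counts describe the members alone. Averaged over genotypes, with 2 livers against 8, 1 member passed, when 5.49% of all genes passed: Hnf4a was 1.96-fold higher (log2 change 0.97, SE 0.25, adjusted p = 0.0170). The call was lost without KO sham replicate 4 (0.86, adjusted p = 0.0559), without either 6 h liver, which leaves 1 genotype with no such liver (0.74, adjusted p = 0.515, and 1.21, adjusted p = 0.0635), and in male libraries alone (0.94, adjusted p = 0.127). Onecut1 (log2 change 2.59, SE 0.80, adjusted p = 0.0519) passed with DESeq2 (adjusted p = 0.0290) and not with edgeR, and Cebpb gave 1.27 (adjusted p = 0.0759). In edgeR the Onecut1 value lay at the threshold and crossed it when any 1 of 7 libraries was left out (log2 change 2.59 to 2.99). Both 6 h sham livers were male, and the other 8 sham livers were 3 male and 5 female.

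Against the sham livers of the same hour, the 6 hepatectomy livers at 6 h gave other values than against the pooled sham groups. No member passed (edgeR's quasi-likelihood test; 0.141% of all genes did), 3 had an unadjusted p under 0.05 and DESeq2 called 2. Foxa2 had the lowest p: its 6 livers at 6 h had 5.6 to 17.8 CPM (median 13.7), below both 6 h sham livers at 30.5 and 46.9 CPM (log2 change -1.63, SE 0.41, adjusted p = 0.0780 and 0.0226 with DESeq2). Foxa1, at 4.1 to 7.7 CPM against 12.99 and 15.4, also lay below both (log2 change -1.27, SE 0.36, adjusted p = 0.123 and 0.0471 with DESeq2). Without KO 6 h replicate 2 both passed (Foxa2 -1.99, adjusted p = 0.0160, and Foxa1 -1.43, adjusted p = 0.0479). Cebpb was 371 to 837 CPM (median 633) after hepatectomy, and 5 of 6 livers lay above both 6 h sham livers, with a log2 change of 0.70 (SE 0.45, adjusted p = 0.626), less than the 1.45 against the pooled sham groups. Hnf4a was -0.28 (SE 0.25) and Cebpa -0.98 (SE 0.40, adjusted p = 0.319). With 1 sham liver of that hour in each genotype, hour and liver cannot be told apart within a genotype.

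**Figure D4:**
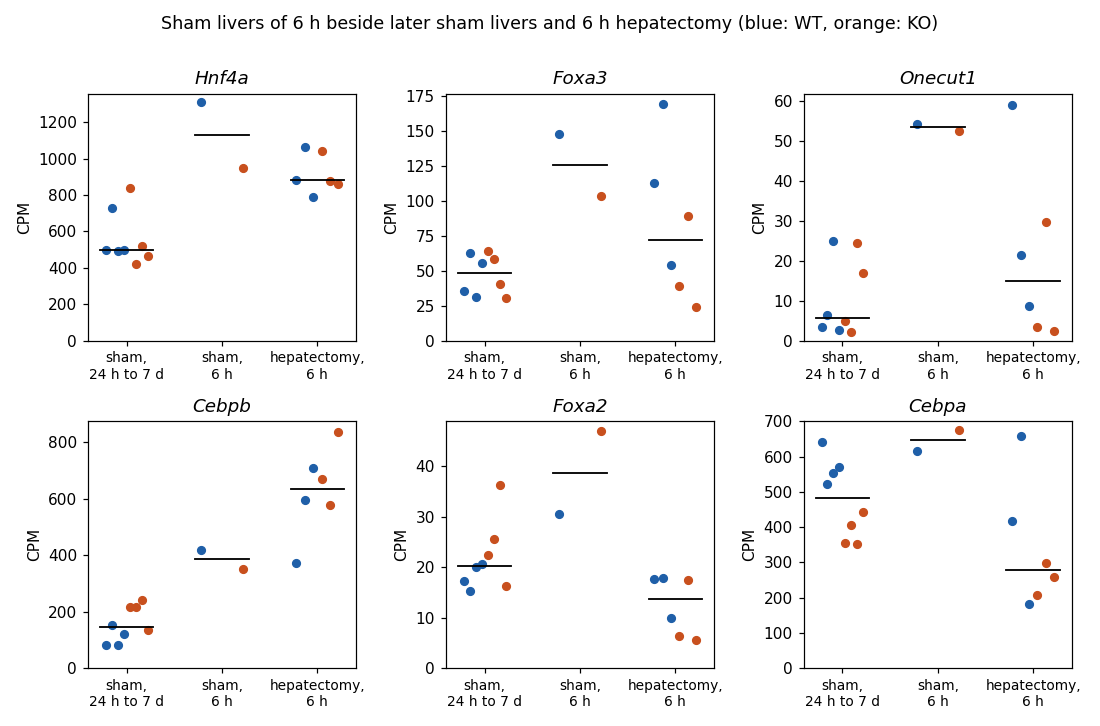
Level of 6 factors, in CPM, in the 8 sham livers taken at 24 h to 7 d, the 2 sham livers taken at 6 h and the 6 livers at 6 h after hepatectomy; blue points are WT, orange points KO and black lines medians. The 2 sham livers at 6 h exceed all 8 later ones for Hnf4a, Foxa3, Onecut1 and Cebpb, and all 6 hepatectomy livers lie below both of them for Foxa2.

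KO livers were compared with WT livers at each stage, which asks whether the loss of Nox4 changes the factors. No member passed in sham livers (0.276% of all genes passed), at 6 h (0.116%), at 48 h (0.341%) or at 7 d (0.045%), and in these 4 edgeR comparisons 0 members had an unadjusted p under 0.05 and DESeq2 called 0. At 24 h 1 member was higher and 1 lower in KO (18.6% of all genes passed), close to the share of all genes. Nr5a2 was 35.1, 33.4 and 41.7 CPM in WT and 25.2, 17.8, 19.0 and 16.9 CPM in KO, without overlap, and 1.85-fold lower in KO (log2 change -0.89, SE 0.27, adjusted p = 0.0235). The call was lost without WT 24 h replicate 3, the library with the most mitochondrial counts (-0.87, adjusted p = 0.0554), and without any 1 of KO 24 h replicates 2 to 4 (adjusted p 0.0554 to 0.0804 over the 4). Against KO sham, at 38.4, 25.8, 27.9, 44.8 and 24.0 CPM, Nr5a2 was 1.62-fold lower at 24 h (log2 change -0.70, SE 0.24, adjusted p = 0.0315), lost without any 1 of KO sham replicates 1 and 4 and KO 24 h replicates 2 to 4 (adjusted p 0.0689 to 0.0982). The 24 h livers of both comparisons are the same 4.

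Cebpb was 2.72-fold higher in KO than in WT at 24 h (log2 change 1.44, SE 0.48, adjusted p = 0.0367), with all 4 KO livers (239 to 1248 CPM) above all 3 WT livers (162 to 218 CPM). Without KO 24 h replicate 3 the log2 change was 0.75, adjusted p = 0.276, and the call was also lost without any 1 of the 3 WT livers or KO 24 h replicate 4 (adjusted p 0.0555 to 0.276 over the 5). A fit of the 2 groups alone called neither Nr5a2 (adjusted p = 0.272) nor Cebpb (adjusted p = 0.304). At the same stage, where 18.6% of all genes passed, 3 of 8 Kupffer cell and macrophage markers were lower in KO (summed level 182 to 428 CPM in WT and 84.3 to 273 in KO), as were 4 of 7 endothelial markers (88.1 to 187 and 62.5 to 92.3 CPM), while 3 of 10 hepatocyte markers and 2 of 7 tested cholangiocyte markers were higher. No Kupffer cell, endothelial or hepatocyte marker was at 0 in any library, and their part in the 2 values was not tested.

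The difference between the genotypes' responses was tested as an interaction. No member passed at 6 h (0% of all genes passed), 24 h (8.47%), 48 h (0%) or 7 d (0%) in edgeR. At an unadjusted p under 0.05 stood 0, 1, 1 and 0 members, and DESeq2 called 0, 1, 0 and 0. Over all genes, 715, 1198 and 347 had an unadjusted p under 0.05 at 6 h, 48 h and 7 d, and DESeq2 called 8, 53 and 3. Nr5a2 at 24 h came closest (log2 change -1.02, SE 0.36, adjusted p = 0.0650). DESeq2 gave it an adjusted p of 0.0369, and it passed without KO sham replicate 5 (-1.11, adjusted p = 0.0431) and without KO 24 h replicate 1 (-1.17, adjusted p = 0.0187). The value for Cebpb at 24 h was 1.01 (SE 0.61, adjusted p = 0.283), and that for Cebpa at 48 h 1.06 (SE 0.49, adjusted p = 0.610). The SE of these interactions ran from 0.34 (Nr5a2 at 48 h) to 1.23 (Onecut1 at 6 h).

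Averaged over the 5 stages, no member differed between KO and WT (2.72% of all genes passed). Of these, 2 had an unadjusted p under 0.05 in edgeR, Cebpb (log2 change 0.48, SE 0.20, adjusted p = 0.188) and Prox1 (log2 change -0.36, SE 0.17, adjusted p = 0.226), and DESeq2 called 0. Between male and female livers no member passed either (3.59% of all genes), and 1, Cebpa, had an unadjusted p under 0.05 (log2 change 0.42, SE 0.20, adjusted p = 0.300), with 0 called by DESeq2. The median level of Hnf4a was 702 CPM in 23 male and 529 CPM in 14 female livers, and its log2 difference, male minus female, was 0.21 (SE 0.14). The sexes are spread unevenly over the stages, and the 6 h hepatectomy groups add nothing to the estimate.

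Beyond the 9 members, 26 other factors of the liver network were read at the same stages. At 6 h averaged over genotypes, where 20.6% of all genes passed, 6 rose and 7 fell, with a median log2 change of -0.16 beside 0.01 over all genes. Hhex, a homeobox factor of early liver formation, had the smallest p (log2 change -1.71, SE 0.29, adjusted p = 0.000163). Klf15, a regulator of amino acid catabolism, also fell (-0.88, SE 0.17, adjusted p = 0.000608). At 24 h, where 17% of all genes passed, 2 fell, Zhx2 (log2 change -0.59) and the bile acid receptor Nr1h4 (-0.90). At 7 d the median was 0.06. Foxa1, Foxa2 and Hhex are also expressed in bile duct cells: of 8 cholangiocyte markers 7 were tested, and at 6 h Sox9 rose (2.68), with summed levels of 30.9 to 49.2 CPM in WT sham, 37.4 to 140.0 in WT at 6 h, 22.1 to 62.7 in KO sham and 32.6 to 79.1 in KO at 6 h, and Cftr at 0 in at least 1 library. Their part in the falls was not tested.

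Textbook targets of the factors were counted at each stage. Of 20 HNF4A targets, which include apolipoproteins, clotting factors and bile acid enzymes, 1 rose and 8 fell at 48 h averaged over genotypes, where 11.2% of all genes passed, with a median log2 change of -0.43 beside 0.04 over all genes, while Hnf4a itself had a log2 change of -0.04. The 10 hepatocyte markers gave 0 higher and 5 lower of 10 in the same comparison (median -0.50). Cyp27a1, a bile acid enzyme (-1.25, SE 0.18, adjusted p = 2.48e-05), and Apoa2 (-0.93) were among the 8, and Apoc2 rose (1.13). Of 13 C/EBP targets 4 fell and none rose at 48 h (median -0.57), among them the urea cycle enzymes Ass1 (-1.10, SE 0.21, adjusted p = 0.00045) and Cps1 (-0.77) and the liver glycogen synthase Gys2 (-0.98). Within WT at 48 h, where 8.29% of all genes passed, the counts were 1 higher and 4 lower of 20 HNF4A targets and 0 higher and 4 lower of 13 C/EBP targets. In KO they were 0 higher and 0 lower of 20 and 0 higher and 0 lower of 13 at 48 h, where 3% of all genes passed. In KO at 24 h they were 2 higher and 3 lower of 20 and 2 higher and 1 lower of 13, both below the 28% of all genes. For FOXA targets at 48 h averaged over genotypes the count was 1 higher and 1 lower of 9, the fetal serum protein gene Afp rising (2.60, SE 0.38, adjusted p = 2.8e-05) and G6pc falling (-1.78). The Afp rise was 4.16, SE 0.56, adjusted p = 4.48e-05 within WT, and the KO value was 1.03, SE 0.54, adjusted p = 0.416. Between KO and WT at 48 h, where 0.341% of all genes passed, FOXA targets gave 0 higher and 2 lower of 9, namely Afp (log2 difference -3.42, SE 0.62, adjusted p = 0.00509) and Igfbp1 (-4.69, SE 1.03, adjusted p = 0.0296). The interaction did not pass for either gene (Afp -3.12, SE 0.78, adjusted p = 0.176, Igfbp1 -4.03, SE 1.25, adjusted p = 0.355).

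At 6 h, where 20.6% of all genes passed averaged over genotypes, the counts were 1 higher and 1 lower of 20 for HNF4A targets, 1 higher and 0 lower of 13 for C/EBP targets, 2 higher and 0 lower of 9 for FOXA targets, 0 higher and 2 lower of 9 for NR5A2 targets and 1 higher and 2 lower of 6 for HNF6 targets. Cyp7a1, the rate-limiting enzyme of bile acid synthesis, which stands in 3 of these lists, fell (log2 change -4.69, SE 1.17, adjusted p = 0.00490). Igfbp1, a FOXA target, rose (3.58, SE 0.67, adjusted p = 0.00036), as did the aminotransferase gene Tat, which 3 lists share (1.18). At 24 h, where 17% of all genes passed, the counts were 1 higher and 3 lower of 20, 1 higher and 1 lower of 13, 1 higher and 0 lower of 9, 0 higher and 2 lower of 9 and 0 higher and 2 lower of 6 in the same order. At 7 d the medians of the 5 lists were -0.27 to -0.09. The lists overlap in Cyp7a1, G6pc, Pck1, Tat, Alb and others, so their counts are not separate observations. Between KO and WT at 24 h, where Nr5a2 was lower and 18.6% of all genes passed, the 9 NR5A2 targets had a median log2 difference of -0.08, and C/EBP targets gave 4 higher and 0 lower of 13, including Hamp (3.31) and Arg1 (1.29).

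Pearson correlations of log2(CPM + 1) over all 37 libraries describe which genes followed each member most closely, among 8544 genes with a mean of at least 5 CPM. They pool genotypes, stages, sexes and library depth, and carry no test. Cebpb was followed most closely of all members, by Cebpd (r = 0.899), the adaptor gene Shb (0.894) and the Mediator subunit gene Med27 (0.887). Prox1 was followed by Ddi2 (0.845) and Itpr1 (0.84), Foxa2 by Clec2d (0.841), and Cebpa by Mpst (0.829) and Prdx6 (0.822). Foxa3 was nearest to Fam187b (0.83), Hnf4a to Susd6 (0.814), Nr5a2 to Ccdc47 (0.79) and Onecut1 to Arid5b (0.75), while Foxa1 had the weakest nearest neighbour, Tcf7l2 (0.68). Among the members themselves the closest pair was Cebpa and Foxa2 (0.63), followed by Foxa1 and Foxa2 (0.576) and by Foxa2 and Onecut1 (0.535). Cebpb and Nr5a2 had the most negative value (-0.471), and Cebpa and Cebpb stood near 0 (-0.106). 

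Several members share their positions with other genes, and the strand setting of the counting is not known. Tmem189, on the opposite strand, shares exon sequence with Cebpb and held 34443 counts over the 37 libraries, and Prox1os overlaps exons of Prox1 with 3673 counts. Gm45091 at Cebpa (401 counts) and Gm20649 at Onecut1 (44) were nearly silent. Hnf4aos, with 2008 counts, lies within the Hnf4a gene without overlapping its exons. Reads of Cebpb and Tmem189 in the shared stretch could not be told apart if strand was ignored.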

How the data were processed

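Whole-liver RNA was sequenced in 37 libraries with the KAPA Stranded mRNA-Seq kit, per the labels' protocols. The authors deposited 1 table of whole-number values per gene. These deposited values were treated here like rounded RSEM expected counts, since the submitters' processing notes name STAR 2.5.3a, RSEM 1.3.0 and the GRCm38 genome. The annotation release, the strand setting and any filter are not given in the sources used here. If strand was ignored, a gene and its antisense partner share counts.

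Gene IDs were matched to GENCODE mouse release 21 (54435 of 55487). Genes kept by filterByExpr (15564) were fitted in edgeR 4.0.16 (R 4.3.3) with 10 genotype by stage groups and sex, TMM scaling and the robust quasi-likelihood test, with Benjamini-Hochberg adjusted p under 0.05 as the threshold. The common biological coefficient of variation was 0.39. CPM use TMM-scaled library sizes, and total counts ran from 26232544 to 48827025. The script was tested on simulated data. DESeq2 1.42.0, RLE scaling, no count filter, a lighter one (added after the data were seen), no sex term, fits of the compared groups alone or of males alone, scaling without mitochondrial genes, sham groups without their 6 h livers, another ratio pseudocount (0.1 in place of 0.5 CPM) and leaving out each library were alternatives. Python 3.11.15 computed the ratio, with two-sided exact permutation tests, and the promoter motifs. Promoter sequences are from RefSeq.

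Replicates were numbered in accession order, which names a library and pairs none. The members and the gene lists were chosen with earlier results of these data known. Outside the 9 members, the genes named are Nox4, up to 3 genes per list with the smallest p among those past the threshold, and the genes of highest correlation with a member (up to 3 each). Some genes of these lists are not reported here.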

Additional observations from a re-analysis of the deposited data

Results flagged for a closer look

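In 45 groups of 4 or 5 libraries, 1 for each member and group of that size, the highest or lowest library was compared with its neighbour. In 6 the gap was large beside the range of the group. For normally distributed values the rule used marks about 1 in 20 such groups by chance. The CPM were not checked for that shape, and the 45 groups share libraries across members. WT sham replicate 5, a liver taken at 6 h, was the highest of its group for Hnf4a (1312 CPM, with the next at 729), Cebpb (419 CPM, next 152) and Foxa3 (148 CPM, next 62.8). KO sham replicate 5, the other sham liver taken at 6 h, was the highest for Cebpa (677 CPM, next 444). Cebpb was far above the other libraries of its group in KO 24 h replicate 3 (1248 CPM, next 398). In KO 48 h replicate 3 (256 CPM, next 177) the gap was 0.859 of the range of a narrow group. That level lay within the KO sham range of 135 to 352 CPM. Groups of 3 libraries were not examined in this way.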

How the results depend on the processing

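No member changed direction past the threshold in any alternative. Values for single members gave the same call in 4907 cases, gained one in 47 and lost one in 95. Most of the unchanged cases were values that did not pass in the main fit, while a loss can come only from a called value. Of the called values, only Foxa1 at 6 h averaged over genotypes kept its call in every run. Counts of members called moved by over 1.5 times as follows, and the cause was not tested. With male libraries alone, which leave fewer samples, 1 member was called at 6 h averaged over genotypes and 0 at 24 h, at 48 h, in WT at 6 h and 48 h, in KO at 6 h and 24 h, between genotypes at 24 h and between the 6 h and other sham livers. With the compared groups alone, 0 were called at 24 h averaged over genotypes, in WT at 6 h, in KO at 6 h and 24 h and between genotypes at 24 h. The fit with no count filter (29319 genes) weighted the trend over all genes without limit and so left out each gene's own spread (for Onecut1 7.03, with 0.726 used), and its calls do not measure the spread between libraries. It called 4 at 24 h and 2 at 48 h averaged over genotypes, 1 at 24 h and 2 at 48 h in WT, 4 at 6 h and 1 at 48 h in KO, 2 between genotypes at 6 h, 2 over all stages, 3 at 6 h against 6 h sham and 3 between the sham times. A lighter filter, of at least 5 counts in at least 3 libraries, was added after the data were seen. It kept that spread and changed 1 count, to 0 at 24 h averaged over genotypes, where RLE scaling also called 0. DESeq2 called 1 in the 24 h interaction, 2 at 6 h against 6 h sham and 2 between the sham times, where no sex term also gave 2. Leaving out each library in turn gave 2 to 5 members at 6 h, 0 to 2 at 24 h and 1 at 48 h averaged over genotypes, 0 to 1 in WT at 6 h, 1 in WT at 48 h, 0 to 2 in KO at 6 h, 0 to 3 in KO at 24 h, 0 to 2 between genotypes at 24 h, 0 to 1 in the 24 h interaction, 0 to 2 in each comparison with the sham livers split by time, and 0 in the others. No ratio comparison passed the threshold in any alternative. No paired analysis was possible because the labels carry no replicate numbers. How depth limits each member was not tested.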
